A study of Mus musculus with 16 samples.

Results

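The 39 protein-coding Hox genes of the mouse, which stand in the clusters A, B, C and D, were followed in embryonic stem cells of 2 genotypes as they left the naive state. Members were chosen by gene symbol, a letter from a to d and a paralogue number after Hox, with 11 genes in cluster A, 10 in B, 9 in C and 9 in D. All 39 were listed in the tables, among 35975 genes, and 34 of them passed the filter on low counts with 18489 genes in all. Hoxa6, Hoxb5, Hoxb6, Hoxd10 and Hoxd12 did not pass it, and they were not tested. On GRCm38 the genes of cluster A lie on chromosome 6, those of B at chr11:96194316-96368256, those of C at chr15:102921103-103036852 and those of D at chr2:74668310-74765142.

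Bulk messenger RNA was sequenced from E14 cells (line ES-E14TG2a), labelled WT or TKO, on days 0, 2, 4 and 7, with 2 biological replicates in each of the 8 groups. Day 0 cells of both genotypes were kept for at least 2 weeks on fibronectin in N2B27 medium that held vitamin C, LIF and inhibitors of both MEK and Gsk3. The day 2, 4 and 7 cells of both genotypes had been moved to Fgf2, Activin A and a low level of knock-out serum, with 1 more split at day 4. The labels do not expand TKO, which was taken to mean loss of Dnmt1, Dnmt3a and Dnmt3b, the enzymes that methylate DNA, nor do they say whether TKO is 1 clone.

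Hox genes code for homeodomain transcription factors that give cells their place along the head to tail axis, and neighbours in a cluster tend to be switched on in order, from low paralogue numbers (anterior) to high ones (posterior). In embryonic stem cells the clusters are known as long domains of Polycomb repression over CpG-rich DNA with little methylation. Cdx factors, Wnt and Fgf signals and retinoic acid are their known activators in the primitive streak and the early trunk.

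Total estimated counts lay between 33168178 and 58197630 per library. Dnmt1 read 36.2 to 55.9 CPM (counts scaled to a common effective library size) in the 8 TKO libraries against 310 to 545 in WT. Dnmt3a was lower in TKO too, at 2.79 and 2.45 CPM against 27.5 and 33.1 in WT at day 0. It read 57.3 and 56.9 CPM against 974 and 952 at day 2, and 22 and 23.8 against 200 and 201 at day 7. Dnmt3b transcripts followed the label less closely. Dnmt3b did not differ by the test at day 0, at 29.3 and 28.9 CPM in TKO against 27.3 and 29.3 in WT (adjusted p = 0.941). It was lower in TKO but still high later, at 995 and 923 CPM against 1898 and 1695 at day 2, 431 and 757 against 1516 and 1245 at day 4 and 307 and 290 against 991 and 965 at day 7. For Dnmt3a at day 4, the library labelled TKO day 4 replicate 1 held 187 CPM and its partner 33.9, where the WT libraries held 297 and 380. The same library differs from its replicate in many Hox genes, and results that rest on it are given with and without it. Naive markers (summed over 7 genes in TPM, the level per transcript length) ran from 862 to 1268 TPM at day 0 and from 5.65 to 14.9 TPM at day 7. Pluripotency genes Pou5f1, Sox2 and Nanog summed to 1043 TPM or more in every library. Stromal fibroblast markers, 10 genes that feeder cells would bring, summed to at least 3.12 TPM at day 0 and to 15.7 to 29.3 TPM later.

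Promoters of 5 members named in the results are printed here, since CpG sites are where the Dnmt enzymes act. Each is the 250 bases before a RefSeq transcription start on GRCm38.p6, read 5′ to 3′ on the gene's own strand, with every CpG in capitals. Hoxa13 lies on the minus strand (chr6:52260881-52261130), as does Hoxa9 (chr6:52227371-52227620). Hoxd13 (chr2:74667975-74668224), Hoxd8 (chr2:74704365-74704614) and Hoxb1 (chr11:96365508-96365757) lie on the plus strand.
Hoxa13: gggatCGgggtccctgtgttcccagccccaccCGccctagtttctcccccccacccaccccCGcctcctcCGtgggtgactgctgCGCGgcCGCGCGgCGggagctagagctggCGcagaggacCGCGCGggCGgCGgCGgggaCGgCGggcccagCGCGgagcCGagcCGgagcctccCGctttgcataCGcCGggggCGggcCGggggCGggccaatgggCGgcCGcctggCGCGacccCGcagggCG
Hoxd13: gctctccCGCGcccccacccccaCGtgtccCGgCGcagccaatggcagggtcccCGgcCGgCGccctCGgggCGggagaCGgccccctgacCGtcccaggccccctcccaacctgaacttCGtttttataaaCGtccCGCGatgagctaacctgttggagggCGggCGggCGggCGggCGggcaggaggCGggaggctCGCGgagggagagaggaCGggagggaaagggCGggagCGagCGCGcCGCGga
Hoxd8: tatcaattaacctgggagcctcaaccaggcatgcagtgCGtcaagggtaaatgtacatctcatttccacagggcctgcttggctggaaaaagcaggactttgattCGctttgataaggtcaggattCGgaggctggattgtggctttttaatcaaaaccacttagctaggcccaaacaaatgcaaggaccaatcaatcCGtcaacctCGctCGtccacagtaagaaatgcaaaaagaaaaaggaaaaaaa
Hoxa9: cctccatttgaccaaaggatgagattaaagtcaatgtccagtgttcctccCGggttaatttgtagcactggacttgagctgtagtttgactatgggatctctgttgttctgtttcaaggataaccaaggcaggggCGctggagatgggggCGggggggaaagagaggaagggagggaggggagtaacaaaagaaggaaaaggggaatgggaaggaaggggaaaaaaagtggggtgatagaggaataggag
Hoxb1: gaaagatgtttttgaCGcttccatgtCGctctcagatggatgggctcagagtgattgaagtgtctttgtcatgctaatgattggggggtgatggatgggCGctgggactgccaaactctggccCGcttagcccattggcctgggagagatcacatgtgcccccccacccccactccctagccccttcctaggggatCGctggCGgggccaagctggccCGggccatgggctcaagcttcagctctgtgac

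The shown stretches hold 35 CpG sites for Hoxa13, 31 for Hoxd13, 6 for Hoxd8, 3 for Hoxa9 and 7 for Hoxb1. RefSeq windows of 300 bases (250 before and 50 after the start) were at hand for 22 of the 39 members, 24 windows in all. Their median was 14.5 CpG sites against 7 over 32851 promoter windows, and 20 of the 24 lay above that median. The quartiles over all windows were 3 and 20 sites, so the Hox median lay between them. Hoxc4 was the only gene of cluster C with a window, and Hoxb3, Hoxb9, Hoxc6 and Hoxc13 had none. Hoxa13 with 45 sites stood at the 98.1 percentile of all windows and Hoxd13 with 37 at the 94.4 percentile, while Hoxa9 with 4 stood at 31.4. Short motifs were searched on both strands. TATAAA was in 16.7% of the Hox windows and 13.6% of all, TTTATG (a caudal-type motif) in 20.8% and 11.9%, and TGATNNAT (a Pbx-Hox motif) in 16.7% and 8.85%. Hoxb1 and Hoxb8 are among the 4 genes with TGATNNAT. The retinoic acid repeat DR5 was in 0 of the 24 Hox windows and 0.00913% of all. A match describes letters in these windows and shows no binding, and methylation itself was not measured here.

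In naive cells at day 0, a subset of Hox genes was transcribed in both genotypes. At least 1 TPM was reached by 14 of the 39 genes in WT and 11 in TKO. Cluster C was led by Hoxc13, the most posterior gene of its cluster and a hair and nail regulator, at 7.47 and 9.17 TPM in WT and 10.6 and 9.78 in TKO, and by Hoxc4 at 6.73 and 7.63 against 7.04 and 6.23. Hoxb9, which patterns the rib cage, held 62.4% of cluster B in WT and 77.6% in TKO. It read 6.13 and 7.17 TPM in WT and 11.8 and 12.3 TPM in TKO. Cluster D was low, with Hoxd9 as its leader at 1.99 and 1.88 TPM in WT and 1.58 and 1.07 in TKO. Over the 4 clusters, paralogues 9 to 13 summed to 28.5 ± 3.95 TPM in WT (SD, n = 2) and 39.2 ± 2.05 in TKO, paralogues 5 to 8 to 6.73 ± 1.11 and 6.43 ± 0.375, and paralogues 1 to 4 to 22.4 ± 1.28 and 20.7 ± 0.928.

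**Figure D1:**
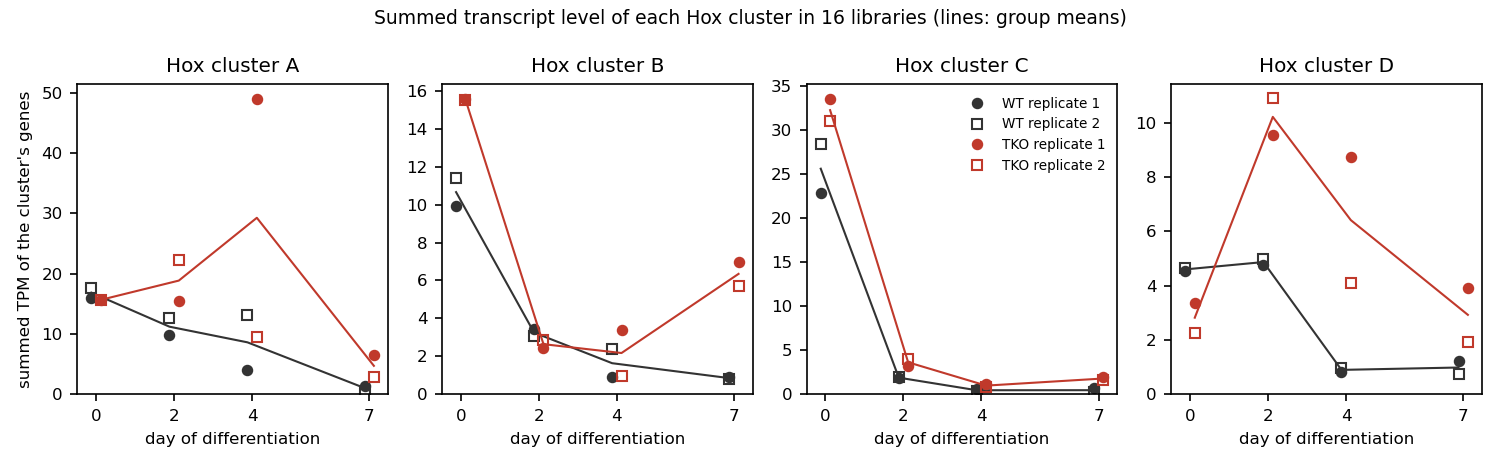
Summed TPM (y axis) of the genes of each Hox cluster against day (x axis), 1 point per library, filled for replicate 1 and open for replicate 2, black for WT and red for TKO, with lines through the means of the groups. Cluster C falls from 22.8 TPM or more at day 0 to 3.98 or less from day 2 on, cluster B of TKO comes back to 6.96 and 5.73 at day 7, and replicate 1 of TKO day 4 stands at 49.0 in cluster A.

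The plot of summed TPM by cluster shows different courses. WT day 7 libraries summed over all 39 genes to 4.21 and 2.33 TPM, against 53.2 and 62.2 at day 0. In TKO the same sum was 68.2 and 64.5 TPM at day 0, 30.6 and 40.1 at day 2, 62.2 and 15.4 at day 4 and 19.4 and 12.1 at day 7. No Hox gene reached 1 TPM in WT at day 7 as a mean over both libraries, while 4 did in TKO (Hoxb1, Hoxb3, Hoxb9 and Hoxd13). Fewer cells with a gene on and less RNA per cell cannot be told apart in bulk RNA, here and below.

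**Figure D2:**
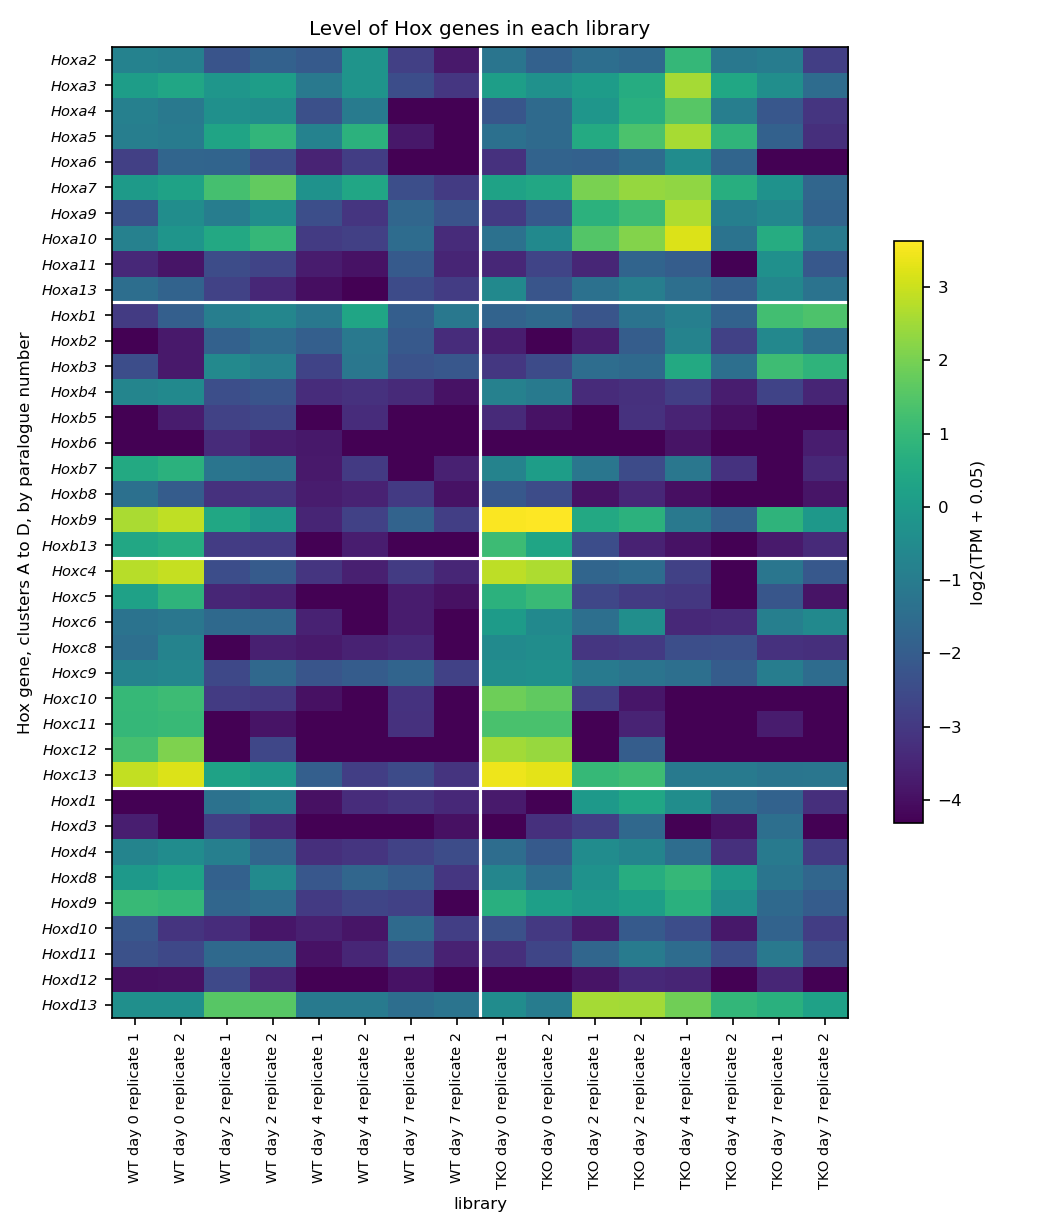
Level of Hox genes (rows, by cluster and paralogue number) in each of the 16 libraries (columns), as colour on the scale log2(TPM + 0.05), dark for low and yellow for high. Apart from Hoxc6, the genes of cluster C are brightest in the 4 day 0 libraries. Hoxc6 had a mean of 0.375 TPM in WT at day 0 and 0.56 in TKO at day 7. Cluster A is brighter in the library labelled TKO day 4 replicate 1 than in replicate 2.

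The first question was how the clusters changed as the cells left the naive state. Cluster C went down as a block in both genotypes. In WT, 8 of its 9 genes fell by day 2 and 9 by days 4 and 7, and in TKO 7 fell by day 2 and 9 by days 4 and 7 (edgeR quasi-likelihood test, Benjamini-Hochberg adjusted p under 0.05). Of all genes tested, 28.6%, 31.2% and 33.2% fell by days 2, 4 and 7 in WT, and 25.5%, 28.6% and 31.7% in TKO. The comparisons with day 0 share the 2 day 0 libraries of each genotype. Hoxc13 counts were 551 and 608 in WT at day 0, 94 and 69 at day 2, 20 and 7 at day 4 and 8 and 4 at day 7. The days do not overlap from day 0 to day 4, and its log2 change to day 7 was -6.67 ± 0.29 (SE; adjusted p = 1.61e-10). In TKO it went from 604 and 553 counts through 115 and 144 and 32 and 29 to 18 and 19, a change of -4.99 ± 0.25 (adjusted p = 5.97e-10). Hoxc12, next to it, had 65 and 103 counts in WT at day 0 and 121 and 109 in TKO, and 0 in all 4 day 7 libraries. With 3 counts per group taken as the floor, it was at least 60.4-fold lower at day 7 in WT and at least 78.1-fold lower in TKO. DESeq2 did not call Hoxc12 (adjusted p = 0.0945 in WT and 0.0793 in TKO). Hoxc10 of TKO, with 156 and 135 counts at day 0 and 0 at day 7, was at least 98.8-fold lower. Hoxc11 of TKO went from 114 and 113 counts to 1 and 0, and Hoxc5 from 110 and 100 to 4 and 1 (-5.36 ± 0.55, adjusted p = 1.82e-06). Hoxc4, the anterior end of the cluster, fell with the posterior genes, from 394 and 404 counts to 4 and 2 in WT (-7.11 ± 0.50, adjusted p = 2.06e-08) and from 324 and 281 to 15 and 7 in TKO (-4.79 ± 0.41, adjusted p = 1.82e-07). Hoxc9 had the smallest fitted fall of the cluster in WT, -1.92 ± 0.48 (adjusted p = 0.00295). The TKO falls of Hoxc6 and Hoxc9 to day 7 were lost without either TKO day 0 library or TKO day 7 replicate 2, and that of Hoxc6 also without TKO day 7 replicate 1 (adjusted p from 0.0571 to 0.165). DESeq2 called neither (0.0846 and 0.053), and Hoxc6 was lost with an effective-length offset (0.224).

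Cluster B split by position. Hoxb4, Hoxb8, Hoxb9 and Hoxb13 fell in both genotypes at all later days, and Hoxb7 was called from day 4 in WT and at day 7 in TKO. The day 2 falls of Hoxb8 were not called by DESeq2 (adjusted p = 0.0584 in WT and 0.0674 in TKO), nor without replicate 1 of day 0 or of day 2 in either genotype (0.0763 to 0.116). Hoxb9 counts in WT were 421 and 446 at day 0 and 14 and 5 at day 7, a log2 change of -5.60 ± 0.41 (adjusted p = 3.05e-08). Those of Hoxb13, a tail-end gene, were 86 and 88 at day 0 and 0 in both WT libraries at day 7, at least 62.6-fold lower. In TKO it went from 108 and 61 to 1 and 2. The anterior genes Hoxb1, Hoxb2 and Hoxb3, which act in the hindbrain, started at 13 counts or fewer and went the other way. Hoxb3 had 2 and 2 counts in WT at day 0 and 40 and 38 at day 2. All 3 genes rose by days 2 and 4 in WT, and at day 7 none of them passed the test there (the day 2 rise of Hoxb2 was lost without WT day 0 replicate 1 or either day 2 library, adjusted p from 0.055 to 0.135, and that of Hoxb1 without WT day 0 replicate 1 or WT day 2 replicate 2, 0.105 and 0.0707), with 11 and 21 counts of Hoxb1 and 13 and 5 of Hoxb3. In TKO Hoxb2 and Hoxb3 rose by day 4, and Hoxb1, Hoxb2 and Hoxb3 by day 7. Hoxb3 of TKO went from 1 and 5 counts at day 0 to 102 and 80 at day 7, a log2 change of 4.85 ± 0.78 (adjusted p = 8.59e-05), and Hoxb1 from 11 and 13 to 90 and 99 (2.94 ± 0.53, adjusted p = 0.000223). Hoxb2 of TKO went from 2 and 0 to 23 and 12 counts, a rise that was lost without TKO day 0 replicate 2 or TKO day 7 replicate 1 (adjusted p = 0.0857 and 0.0704). The rise of Hoxb1 and Hoxb2 in WT at day 4 was not called without WT day 4 replicate 2 (adjusted p = 0.0849 and 0.0768), nor was that of Hoxb3 (adjusted p = 0.171). Without WT day 0 replicate 1 the WT day 4 rises of Hoxb2 and Hoxb3 were lost too (adjusted p = 0.11 and 0.0686), and without WT day 0 replicate 2 that of Hoxb3 (0.075).

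In cluster A the central gene Hoxa7 rose by day 2, from 49 and 55 counts to 157 and 180 in WT (1.53 ± 0.48, adjusted p = 0.0131) and from 48 and 49 to 180 and 249 in TKO (1.95 ± 0.48, adjusted p = 0.00336). Hoxa5, a lung and neck patterning gene, rose with it in both genotypes, and Hoxa4, Hoxa9 and Hoxa10 were called in TKO. These day 2 calls were near the threshold: Hoxa9 and Hoxa10 of TKO were lost without any 1 of the 4 libraries (adjusted p from 0.0675 to 0.206), and Hoxa5 and Hoxa7 of WT each without 3 of the 4 (0.0674 to 0.228). By day 7, 7 of the 10 tested genes of the cluster had fallen below day 0 in WT. Of all genes tested, 33.2% fell by then in WT and 31.7% in TKO. Hoxa4 went from 23 and 17 counts to 0 in both libraries, at least 14.4-fold lower. In TKO 2 of the 10 had fallen at day 7, Hoxa7 among them (-1.53 ± 0.58, adjusted p = 0.0321), a call lost without either day 0 library or TKO day 7 replicate 2 (adjusted p from 0.0735 to 0.207). In WT the step from day 0 to 4 gave 1 call in this cluster, a fall of Hoxa13, where 31.2% of all genes tested fell. The WT day 4 libraries themselves lay far apart: Hoxa5 had 36 counts in replicate 1 and 98 in replicate 2.

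Cluster D was marked by Hoxd13, the last gene of the cluster and a regulator of digits. Its counts in WT were 54 and 49 at day 0, 241 and 215 at day 2, 41 and 35 at day 4 and 20 and 23 at day 7. The day 2 libraries stood above all others of the genotype, with a log2 change from day 0 of 1.96 ± 0.30 (adjusted p = 6.97e-05). In TKO the counts were 39 and 26, then 348 and 379, 279 and 126, and 76 and 55, with a change of 3.30 ± 0.32 to day 2 (adjusted p = 8.8e-07). TKO day 7 lay above TKO day 0 (0.99 ± 0.33, adjusted p = 0.0182), a call lost without TKO day 0 replicate 2 (0.151) or TKO day 7 replicate 1 (0.163). Hoxd13 led the cluster at day 2, with 59.7% of its summed TPM in WT and 56.3% in TKO. The anterior gene Hoxd1 went from 0 counts in both WT libraries to 21 and 25 at day 2, at least 13.4-fold higher. It went from 1 and 0 to 40 and 61 in TKO, where it had 8 and 2 at day 7. For Hoxd9, in WT it fell from 126 and 107 counts to 18 and 19 at day 2 (-2.83 ± 0.47, adjusted p = 0.000133), and in TKO it went from 77 and 52 to 44 and 59, a difference that was not called (-0.51 ± 0.43, adjusted p = 0.334).

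Over the 34 tested genes, 7 rose and 16 fell by day 2 in WT, where 32.9% of all genes rose and 28.6% fell. The counts were 3 and 20 by day 4 (31.9% and 31.2% of all genes) and 0 and 25 by day 7 (32.9% and 33.2%). In TKO they were 9 and 12 by day 2 (31.5% and 25.5%), 11 and 13 by day 4 (34.4% and 28.6%) and 5 and 18 by day 7 (36.1% and 31.7%). The median log2 change of the 34 genes to day 7 was -3.75 in WT, against -0.03 over all genes tested, and -1.34 in TKO, against 0.04. With genes at 0 counts set to their bound, and 1 gene of WT with 3 counts or fewer in both groups left out, the WT median was -3.85. Of the 6 genes of cluster A that rose in TKO by day 4, Hoxa5 was called without replicate 1 of that group and Hoxa3, Hoxa4, Hoxa7, Hoxa9 and Hoxa10 were not, nor were the rises of Hoxb2 and Hoxd8. Hoxa10 then lay below day 0, with a log2 change of -0.58 in place of 3.20.

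The second question was how TKO differed from WT on each day. At day 0 few Hox genes were called. Of 34 genes 0 were higher, against 4.52% of all genes tested, and 1 was called lower, against 8.16%. This was Hoxd8, with 27 and 19 counts in TKO against 52 and 70 in WT (-1.26 ± 0.36 as log2, adjusted p = 0.0346). Its call was lost without any 1 of the 4 day 0 libraries (adjusted p from 0.0568 to 0.249). Hoxb9 lay higher in both TKO libraries, at 17.9 and 18.8 CPM against 11.4 and 11.2, with a log2 difference of 0.70 ± 0.28 that was not called (adjusted p = 0.121). Both TKO libraries stood above both WT libraries for 10 of the 34 genes (23.9% of all genes) and below both for 14 (29.6% of all genes).

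**Figure D3:**
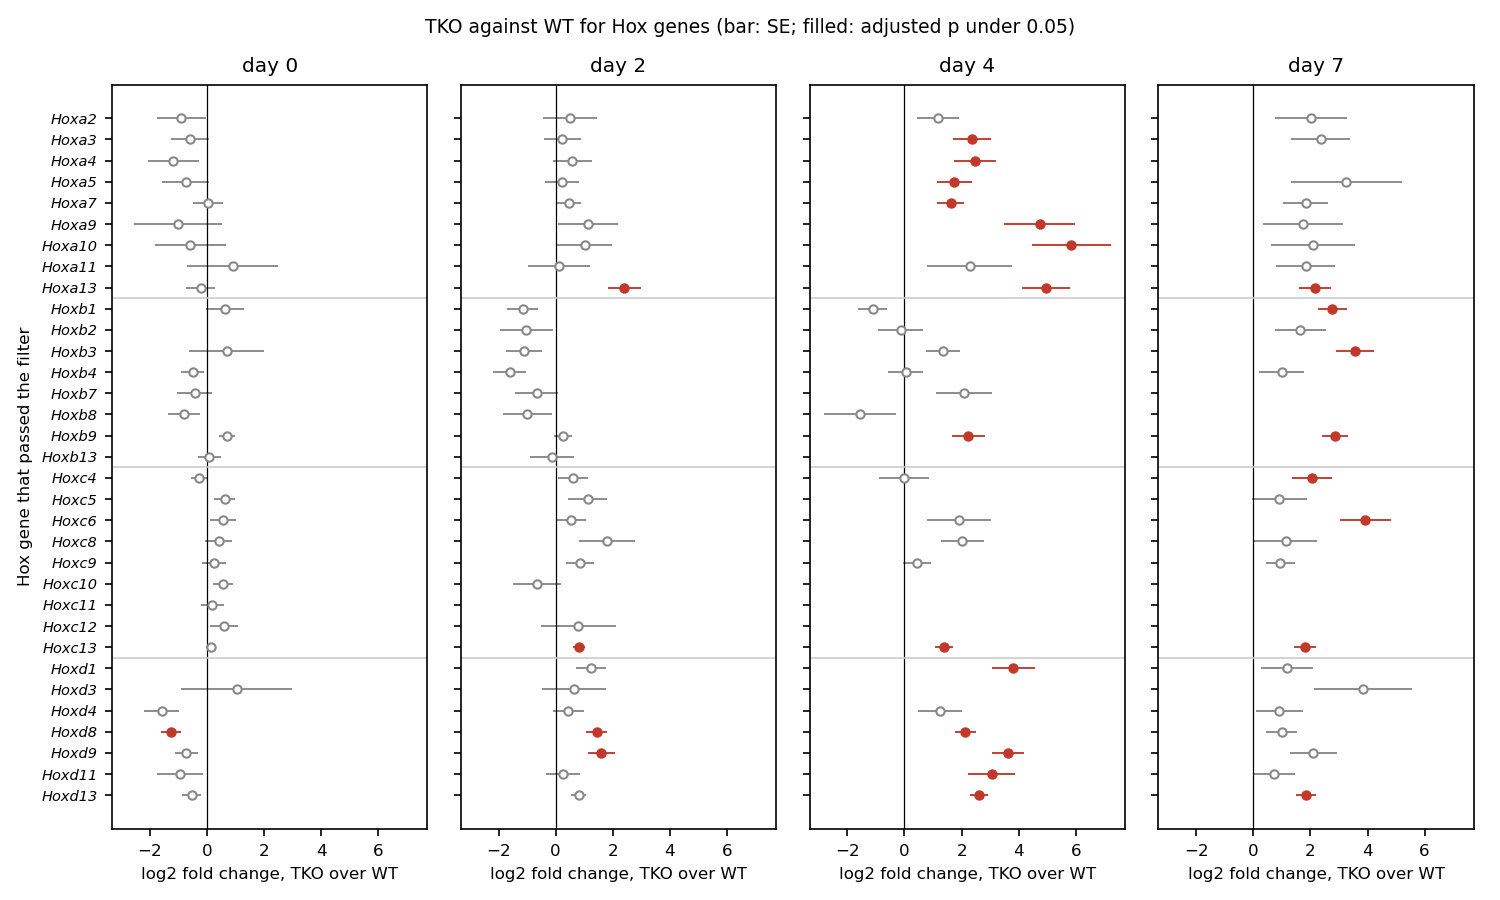
Log2 fold change of TKO over WT (x axis) with its SE for Hox genes that passed the filter (rows, by cluster), in 1 panel per day, filled red where the adjusted p was under 0.05. Genes with 0 counts in a group, or 3 counts or fewer in both groups, are not drawn. Filled points are 1 at day 0, 4 at day 2, 14 at day 4 and 8 at day 7, and those from day 2 on lie to the right of 0.

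At day 2, 4 of 34 genes were higher in TKO (7.91% of all genes tested) and 0 lower (5.52%; of the 34 genes 7 had an unadjusted p under 0.05 in either direction, and DESeq2 called 3). Hoxa13, a regulator of the limb tip and the urogenital tract, had 15 and 29 counts in TKO against 6 and 3 in WT (2.40 ± 0.58, adjusted p = 0.0161). Hoxc13 had 115 and 144 against 94 and 69 counts (0.82 ± 0.21, adjusted p = 0.0219). Hoxd9 read 1.20 and 1.38 CPM against 0.366 and 0.493 (1.60 ± 0.48, adjusted p = 0.0444) and Hoxd8 1.28 and 1.41 against 0.406 and 0.597 (1.44 ± 0.36, adjusted p = 0.0200). None of the 4 groups of values overlaps between genotypes, and both TKO libraries stood above both WT libraries for 16 of 34 genes (30.5% of all) and below both for 6 (31.8% of all). These calls are at the limit of 2 libraries a group: 0 of the 4 were made without WT replicate 1, without WT replicate 2 or without TKO replicate 2, and 1, Hoxa13, without TKO replicate 1. Hoxd13 was at 9.51 and 8.89 CPM in TKO against 4.89 and 5.58 in WT, and its difference of 0.81 ± 0.27 was not called (adjusted p = 0.0638).

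At day 4, 14 of 34 genes were higher in TKO (17.8% of all genes tested) and 0 lower (11.1%; 18 of the 34 had an unadjusted p under 0.05, and DESeq2 called 14). By cluster these were 7 of 10 tested genes of A, 1 of 8 of B (Hoxb9), 1 of 9 of C (Hoxc13) and 5 of 7 of D. The median log2 difference was 1.83 over the 34 genes and 0.01 over all genes tested. It was 1.97 without the 6 genes that had 3 counts or fewer in both groups. In cluster D, Hoxd13 counts were 279 and 126 in TKO against 41 and 35 in WT (2.60 ± 0.31, adjusted p = 5e-05). Hoxd9 had 102 and 42 against 6 and 7 (3.62 ± 0.55, adjusted p = 0.000316), and Hoxd8, a trunk gene, 83 and 42 against 14 and 18 (2.13 ± 0.37, adjusted p = 0.000856). Hoxd1 had 38 and 15 against 1 and 3 (3.81 ± 0.75, adjusted p = 0.00246). In each of these genes both TKO libraries lay above both WT libraries, with replicate 1 above replicate 2. Hoxa13, at 23 and 12 counts against 1 and 0, had a counting ratio of 40.5 with a 95% exact interval from 6.81 to 1644, which covers counting error only. Hoxc13 read 32 and 29 against 20 and 7 counts (1.39 ± 0.31, adjusted p = 0.00419), and here the TKO replicates were alike.

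Most calls of cluster A at day 4 rested on 1 library. Hoxa10, a posterior gene of the uterus and blood, had 463 counts in the library labelled TKO day 4 replicate 1 but 16 in its partner, and the WT libraries had 5 and 4. Hoxa9 beside it had 379 and 14 against 9 and 7. Hoxa3, which patterns the pharyngeal arches, had 430 and 68 against 38 and 68, and Hoxa4 had 132 and 20 against 8 and 22. Their log2 fold changes were 5.84 ± 1.38, 4.74 ± 1.24, 2.36 ± 0.66 and 2.46 ± 0.74 with both libraries (adjusted p from 0.00973 to 0.0265). Without replicate 1 they were 2.07, 1.07, 0.60 and 0.65, with adjusted p of 0.135, 0.45, 0.428 and 0.542. That setting left 6 of the 14 calls (Hoxa13, Hoxc13, Hoxd1, Hoxd8, Hoxd9 and Hoxd13), where 13.7% of all genes tested were called higher, and a median of 0.30 over 35 Hox genes. WT day 4 replicate 1 mattered as well: without it the same 6 genes were higher (13.2% of all genes) and Hoxb1 was lower. Hoxa9, Hoxa10 and Hoxd11 were lost as well without WT day 4 replicate 2 (adjusted p from 0.0645 to 0.0864).

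**Figure D4:**
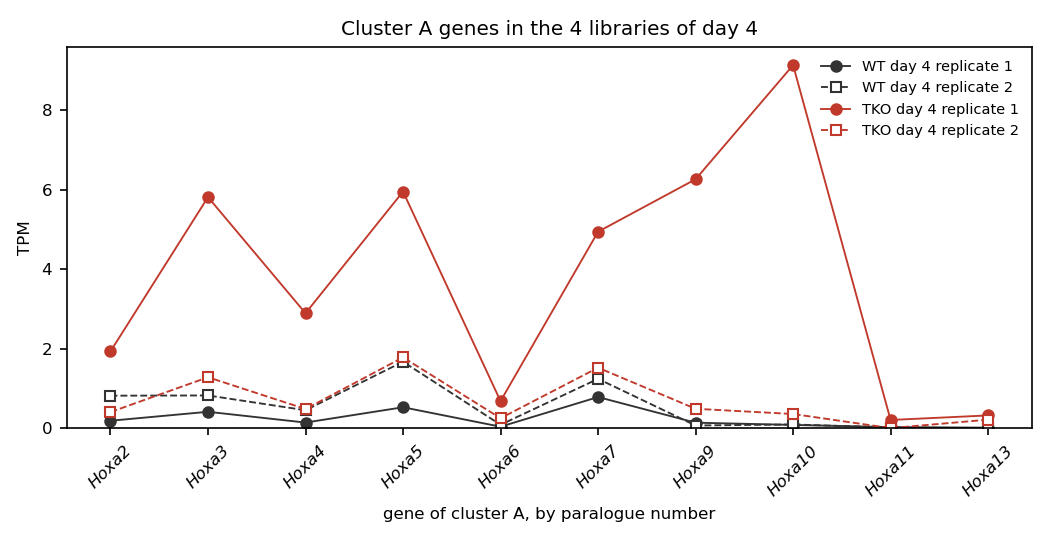
TPM (y axis) of genes of cluster A in order of paralogue number (x axis) in the 4 day 4 libraries, with 1 line per library. Replicate 1 of TKO stands above its replicate 2 at every gene drawn, with 5.95 against 1.78 at Hoxa5 and 9.13 against 0.355 at Hoxa10, while the WT libraries stay at 1.67 or less.

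Replicates differed in the same block of genes in some other groups too. In TKO day 4, 13 of the 20 Hox genes at 0.3 CPM or more (the mean of both libraries) were over 2-fold higher in replicate 1 and 0 in replicate 2, where 5.83% of 15879 genes differed by 2-fold in either direction. In WT day 4 it was 7 of 10 Hox genes, all higher in replicate 2 (among them Hoxa2, Hoxa3, Hoxa5, Hoxa7, Hoxb1 and Hoxb3), where 3.44% of all genes differed. In TKO day 7 it was 7 of 15, all higher in replicate 1 (2.20% of all genes), and at day 0 it was 0 in both genotypes. The gap was small in the remaining groups. In WT day 2, 1 of 20 Hox genes was higher in replicate 1 and 2 in replicate 2 (1.97% of all genes). In TKO day 2 it was 0 and 2 of 22 (1.44%), and in WT day 7 it was 0 and 0 of 2 (1.58%). The primitive streak gene T moved with the replicate gap at day 4: WT replicate 2 had 15.1 CPM and its partner 3.81, while TKO replicate 1 had 5.71 CPM and its partner 1.03. Cyp26a1, which breaks down retinoic acid, read 6.25 and 0.506 CPM in the TKO pair. In TKO day 7, T read 516 and 527 CPM and Cyp26a1 21.9 and 24.8 in replicates 1 and 2. Their part in the difference was not tested.

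At day 7, 8 of 34 genes were higher in TKO (23.4% of all genes tested) and 0 lower (21.1%; 12 of the 34 had an unadjusted p under 0.05, and DESeq2 called 13). The share of higher genes was thus near that of all genes, and the median log2 difference was 1.83 over the members and 0.00 over all genes tested. The members' median was 0.99 without TKO day 7 replicate 1, 1.24 without WT day 7 replicate 2, 2.17 without TKO day 7 replicate 2 and 2.44 without WT day 7 replicate 1. Of the 8 genes, 3 stand in cluster B, 3 in C, 1 in A and 1 in D. Hoxb3, which acts in the hindbrain and thyroid, had 102 and 80 counts in TKO against 13 and 5 in WT (3.55 ± 0.66, adjusted p = 0.000705). Hoxb1, a gene of the fourth rhombomere, had 90 and 99 against 11 and 21 (2.77 ± 0.51, adjusted p = 0.000636). Posterior Hoxb9 stood at 77 and 41 against 14 and 5 counts (2.85 ± 0.45, adjusted p = 0.000186). All 3 were more than 2-fold higher in each TKO library than in either WT library, and the next genes of the cluster, Hoxb4 to Hoxb8, were at 5 counts or fewer in every day 7 library. In cluster D Hoxd13 read 76 and 55 counts against 20 and 23 (1.83 ± 0.35, adjusted p = 0.000928).

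Cluster C genes at day 7 were low in absolute terms. Hoxc13 had 18 and 19 counts in TKO against 8 and 4 in WT (1.82 ± 0.39, adjusted p = 0.00173). Hoxc6, a thoracic gene, had 8 and 8 against 1 and 0, a counting ratio of 18.7 with a 95% exact interval from 2.90 to 782. Hoxc4 had 15 and 7 against 4 and 2 counts (2.05 ± 0.70, adjusted p = 0.0293), and Hoxa13 24 and 15 against 6 and 4 (2.16 ± 0.57, adjusted p = 0.00739). The calls of Hoxc4 and Hoxa13 were lost without WT replicate 2 (adjusted p = 0.165 and 0.0682) or TKO replicate 1 (0.262 and 0.0747), and that of Hoxc4 without WT replicate 1 (0.0635). The other cluster A genes had higher counts in TKO with a wide spread, such as Hoxa10 at 42 and 13 counts against 12 and 3, and were not called. In a setting chosen after seeing the data, without TKO day 4 replicate 1, 13 genes were called at day 7, and likewise 13 without TKO day 4 replicate 2. The added genes in both settings were Hoxa3, Hoxa4, Hoxa7, Hoxa10 and Hoxd9. Both TKO libraries stood above both WT libraries for 14 of 34 genes at day 4 and 20 of 34 at day 7 (32.4% and 39.5% of all genes). They stood below both for 0 genes on either day (30% and 39.7% of all genes).

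**Figure D5:**
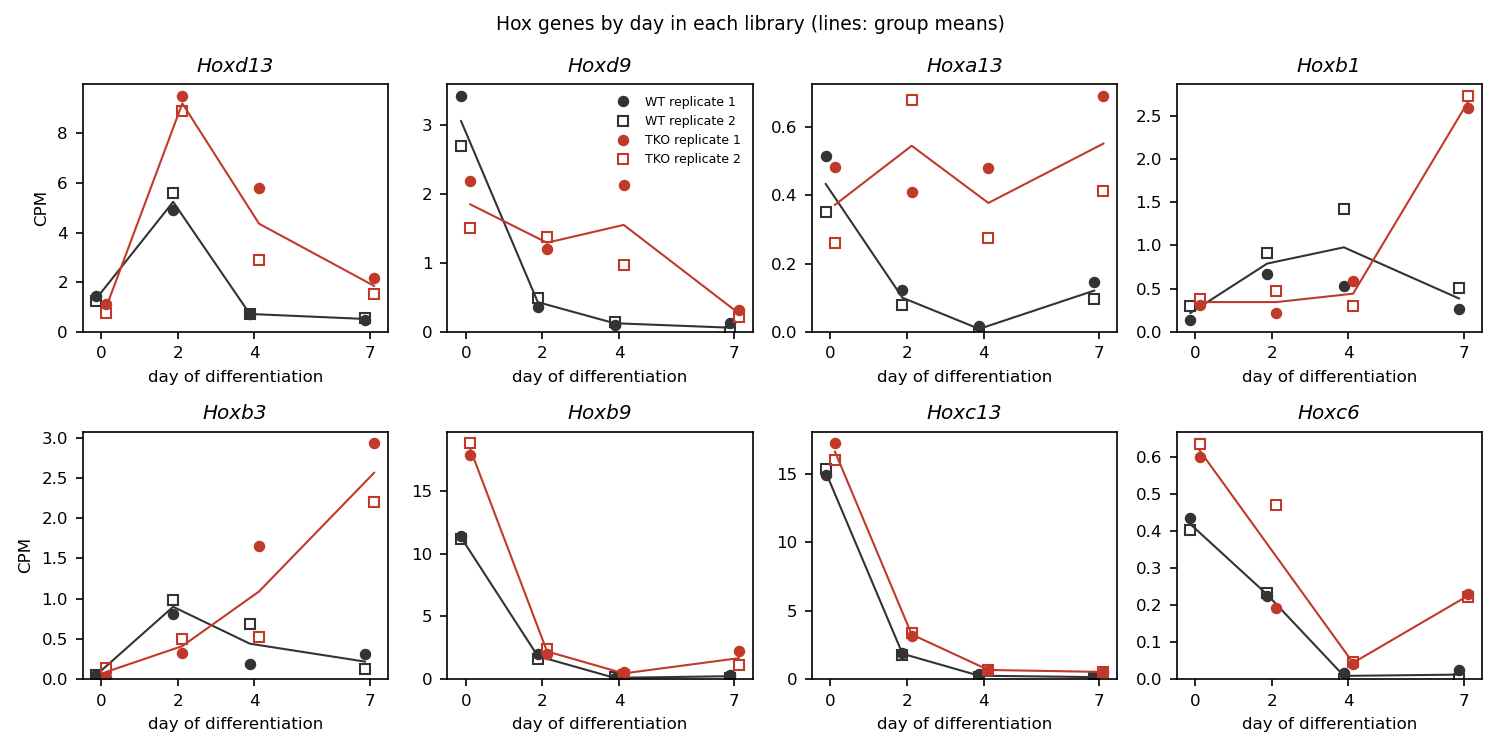
CPM (y axis) of 8 Hox genes against day (x axis), 1 point per library, filled for replicate 1 and open for replicate 2, black for WT and red for TKO, with lines through the means of the groups. Hoxd13 peaks at day 2 at 9.51 and 8.89 CPM in TKO and 4.89 and 5.58 in WT, Hoxb1 and Hoxb3 of TKO are highest at day 7, and Hoxb9, Hoxc13 and Hoxc6 are highest at day 0 in both genotypes.

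Cell type markers moved beside the day 4 and day 7 values. At day 4, 17.8% of all genes tested were higher in TKO and 11.1% lower. Of 7 tested endoderm markers 4 were higher and 1 lower (median log2 difference 3.89). Of 8 neural and spinal markers 5 were higher and 1 lower (1.48), and of 7 naive markers 4 and 0 (0.74). Their summed TPM at day 4 was 9.96 and 4.57 in TKO against 3.73 and 9.45 in WT for endoderm, 84.1 and 114 against 77.7 and 45.2 for neural and 46.1 and 25 against 13.1 and 14.4 for naive markers. Of 6 tested formative and primed epiblast markers 3 were higher at day 4 and 1 lower, and of 6 primitive streak and nascent mesoderm markers 0 and 2. The epiblast list holds Dnmt3b, which TKO was taken to have lost, so its counts are not a measure of cell state alone. Lateral plate and trophoblast markers each gave 2 and 0 of 6, and stromal fibroblast markers 1 and 1 of 8. The part of these markers in the Hox differences of day 4 was not tested. All 6 tested markers of the primitive streak and nascent mesoderm were called higher in TKO at day 7, where 23.4% of all genes tested were higher and 21.1% lower. The list (8 genes) summed to 843 and 876 TPM in TKO against 107 and 88.4 in WT. In the other TKO and WT libraries the sum was 26.4 TPM or less. T stood at 516 and 527 CPM against 51.6 and 42.9, Tbx6 at 8.94 and 10.7 against 0.434 and 0.579, and Msgn1 at 6.99 and 6.39 against 0.0724 and 0.0241. Neural and spinal markers (10 genes) summed to 157 and 159 TPM against 153 and 170, endoderm markers (7 genes) to 116 and 137 against 164 and 123, and lateral plate markers (6 genes) to 29.6 and 26.5 against 26.3 and 20.0. Members of these lists were called both ways at day 7. Of 8 tested neural and spinal markers 2 were higher in TKO and 3 lower, of 7 endoderm markers 2 and 2, and of 6 lateral plate markers 1 and 2. Of 7 naive markers 3 were higher and 1 lower, and of 6 formative and primed epiblast markers 1 and 3, with Dnmt3b among these 3. The part of streak-like cells in the Hox differences was not tested.

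Genotype and time were also tested together, as the change from day 0 in TKO minus that in WT. By day 4, 7 Hox genes had a positive difference (Hoxa10, Hoxa13, Hoxc13, Hoxd8, Hoxd9, Hoxd11 and Hoxd13) and 0 a negative one, against 11.6% and 4.67% of all genes. By day 7 it was 8 (Hoxa13, Hoxb9, Hoxc4, Hoxc6, Hoxc13, Hoxd8, Hoxd9 and Hoxd13) and 0, against 15.8% and 11.3%. The unadjusted p was under 0.05 for 15 of 34 genes by day 4 and 12 by day 7, and DESeq2 called 10 and 9. Hoxd13 had 3.13 ± 0.46 by day 4 (adjusted p = 0.000442) and 2.35 ± 0.49 by day 7 (adjusted p = 0.00288). These tests use the same day 0 libraries as the comparisons above. The count by day 4 was 4 without TKO day 4 replicate 1 or without TKO day 0 replicate 1 and 12 without TKO day 4 replicate 2. The count by day 7 was 1 without WT day 7 replicate 2, 2 without TKO day 7 replicate 1, 3 without TKO day 0 replicate 2 and 5 without WT day 0 replicate 1.

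Genes that act on the clusters or with their products were read from lists. Over all genes tested, the shares called higher and lower in TKO were 4.52% and 8.16% at day 0, 7.91% and 5.52% at day 2, 17.8% and 11.1% at day 4 and 23.4% and 21.1% at day 7, and the counts of each list stand beside these. Of 15 activators and axial patterning genes, 1 was higher in TKO at day 0 and 0 lower, then 0 and 2 at day 2, 3 and 3 at day 4, and 13 and 0 at day 7. The day 7 genes with the lowest adjusted p were Tbx6, a paraxial mesoderm factor (4.27 ± 0.31, adjusted p = 1.86e-07), and Msgn1, another (7.03 ± 0.53, adjusted p = 5.49e-07). Cdx1, a caudal factor that binds Hox regulatory DNA, was high in naive cells of both genotypes, at 89.2 and 59.8 CPM in WT and 59.5 and 62.6 in TKO. It had 0 counts in both WT day 7 libraries and 1.03 and 1.13 CPM in TKO. Cdx2, its paralogue, stood at 7.30 and 7.36 CPM in TKO against 0.290 and 0.217 at day 7 (4.84 ± 0.37, adjusted p = 5.59e-07). Among 13 ParaHox and Evx relatives, 10 of them tested, 1 was higher and 0 lower at day 0, 2 and 0 at day 2, 7 and 0 at day 4 and 5 and 0 at day 7, with Mnx1, a motor neuron factor, at 9.23 and 10.7 against 1.26 and 1.66 CPM at day 7 (2.77 ± 0.24, adjusted p = 1.05e-06). Cdx2 and Mnx1 are also on the trophoblast and neural marker lists. The lists share further members, so their counts are not independent. T, Tbx6, Msgn1 and Nkx1-2 are both activators here and markers of the primitive streak and nascent mesoderm above. Cdx1, Cdx2, Cdx4 and Evx1 are on both the activator and the ParaHox list, and Evx1 is also counted among the neighbours of the clusters below.

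Of 19 retinoic acid genes, 2 were higher and 4 lower in TKO at day 2, 7 and 2 at day 4, and 9 and 6 at day 7. Aldh1a1, which makes retinoic acid, was at 3.25 and 4.74 CPM in TKO against 0.0966 and 0.0241 at day 7 (5.98 ± 0.55, adjusted p = 5.4e-06), and Rdh10, which acts a step before it, rose as well (1.05 ± 0.12, adjusted p = 1.18e-05). Stra6, a retinol carrier receptor, was lower (-1.76 ± 0.25, adjusted p = 7.62e-05), as was the receptor Rarg (-0.63 ± 0.12, adjusted p = 0.000873). Cyp26a1 read 21.9 and 24.8 CPM in TKO at day 7 against 163 and 135 in WT. Of 6 tested hindbrain segment regulators, 1 was higher and 0 lower at day 0, 0 and 1 at day 2, 3 and 0 at day 4 and 2 and 2 at day 7. Epha4, a receptor of rhombomere borders, was among the higher ones (0.88 ± 0.24, adjusted p = 0.00904) and read -0.02 (adjusted p = 0.981) over protein-coding transcripts alone. The forebrain gene Otx2, at 97.4 and 98.7 CPM in TKO against 218 and 176 in WT (adjusted p = 5.69e-06), was among the lower ones.

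Among 29 Polycomb and Trithorax regulators, 5 were higher and 2 lower at day 0, 2 and 1 at day 2, 5 and 5 at day 4, and 3 and 11 at day 7. Bmi1, a subunit of Polycomb complex 1, was at 53.7 and 50.8 CPM in TKO against 16.1 and 12.9 at day 7 (1.85 ± 0.10, adjusted p = 1.49e-08). Phf19, which helps Polycomb complex 2 to bind, was at 0.546 and 0.551 CPM against 5.33 and 7.16 (-3.50 ± 0.21, adjusted p = 2.72e-08). Phf1, its relative, was higher (0.77 ± 0.14, adjusted p = 0.000699) and Cbx7 lower (-0.83 ± 0.07, adjusted p = 1.28e-06). Of 46 tested developmental regulators that Polycomb is known to hold outside the Hox clusters, 1 was higher and 0 lower at day 0, 5 and 1 at day 2, 19 and 4 at day 4, and 13 and 15 at day 7. Their medians were 1.18 at day 4 and -0.04 at day 7. Tbx4, a hindlimb gene, was among those higher at day 7 (3.27 ± 0.26, adjusted p = 4.21e-07), and Irx3 was lower (-2.14 ± 0.29, adjusted p = 4.75e-05). Tlx1 was lower as well, at 0 and 0.0275 CPM in TKO against 1.13 and 1.09 in WT.

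Cofactors bind DNA together with Hox proteins. Of 9 Pbx, Meis and Pknox genes, 1 was lower at day 0, 1 was higher and 4 lower at day 4, and 1 and 3 at day 7. Meis1 was the higher one at day 7 (1.44 ± 0.38, adjusted p = 0.00716), and Pbx2 (-0.41 ± 0.07, adjusted p = 0.000467) and Pbx3 (-0.32 ± 0.09, adjusted p = 0.00919) were among the lower ones. Of 19 tested neighbours of the clusters, 3 were higher and 2 lower at day 0, 0 and 2 at day 2, 6 and 3 at day 4 and 4 and 4 at day 7. Evx1, next to Hoxa13 at the posterior end of cluster A, was at 41.5 and 33.9 CPM in TKO against 2.61 and 2.46 at day 7 (3.89 ± 0.41, adjusted p = 8.77e-06). Skap2, beyond the anterior end of that cluster, was 0.82 ± 0.15 higher (adjusted p = 0.000741). Nfe2l1 near cluster B and Hnrnpa1 near cluster C were lower by small amounts (-0.56 ± 0.07 and -0.36 ± 0.08, adjusted p = 3.25e-05 and 0.00284).

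Some levels are uncertain because genes overlap. Exon bases are shared with another gene on the same strand for 9 members, such as Hoxc5 with Hoxc10 and Hoxd3 with Hoxd4, and with a gene on the opposite strand for 10, such as Hoxb3 with Hoxb3os. Of these 14 other genes 2 are in the tables, and whether kallisto used the strand of the kit is not given in the sources used here, so reads of Hoxb3 and Hoxb3os cannot be told apart. In Hoxa10, 59.8% of the counts went to a processed transcript with no protein, and in Hoxd11 78.8%.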

How the data were processed

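The 16 libraries were read from the kallisto tables that the authors deposited, 1 per library. Per the file headers these hold the estimated count, the TPM and the effective length of each transcript, the last used only in an alternative. Reads were aligned by kallisto per the submitters' processing notes, with builds GRCm38 and mm10; its version, its strand option and the annotation are not given in the sources used here. No header or label gives any further step of the authors.

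Estimated counts were summed per gene by Ensembl identifier (116728 of 119414 transcripts, 97.8%, matched; the rest held 0.946 to 1.05% of counts) and rounded. Genes were kept by filterByExpr (minimum count 10), scaled by TMM and tested with edgeR 4.0.16 (R 4.3.3, quasi-likelihood, all 16 libraries, 8 residual degrees of freedom), with Benjamini-Hochberg adjustment over 18489 genes. Values written as x ± y are log2 changes with their SE. An adjusted p under 0.05 was called. Hox levels between genes were compared in TPM. With 2 libraries per group an exact test of a single value cannot pass 0.05, so only the model was used. Scripts were tested on simulated data. Promoters came from RefSeq (GRCm38.p6).

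The members and lists were chosen with earlier results of these data known. Named were Hox genes called between genotypes (up to 8 per day by size), the 2 highest of each cluster, the 5 largest rises and falls to day 7, and from each list up to 2 called genes per direction at day 7. Other genes named (T, Cyp26a1, Cdx1 and further Hox genes) were chosen after their values were seen. Some genes that the rule names are not reported here by name and are not drawn; counts, medians and sums include them. The labels call the replicates biological and say no more about their source. Alternatives were other size factors, filters, DESeq2 1.42.0, an effective-length offset, protein-coding transcripts alone, a replicate block, only the libraries compared, and leaving out each library. Intervals cover counting error only.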

Additional observations from a re-analysis of the deposited data

Results flagged for a closer look

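In these Hox genes the change from day 0 differed between TKO and WT by a test of the difference itself (edgeR, interaction term, log2 of the TKO change minus the WT change, adjusted over all genes). By day 4 the difference was 6.42 ± 1.90 for Hoxa10 (SE; adjusted p = 0.0426), 5.16 ± 1.02 for Hoxa13 (adjusted p = 0.00362) and 1.25 ± 0.36 for Hoxc13 (adjusted p = 0.029). In cluster D it was 3.40 ± 0.52 for Hoxd8 (adjusted p = 0.000541), 4.34 ± 0.70 for Hoxd9 (adjusted p = 0.000797), 3.99 ± 1.17 for Hoxd11 (adjusted p = 0.0333) and 3.13 ± 0.46 for Hoxd13 (adjusted p = 0.000442).

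By day 7 it was 2.37 ± 0.77 for Hoxa13 (adjusted p = 0.0354), 2.15 ± 0.54 for Hoxb9 (adjusted p = 0.00923), 2.32 ± 0.77 for Hoxc4 (adjusted p = 0.0384), 3.36 ± 1.05 for Hoxc6 (adjusted p = 0.0303) and 1.69 ± 0.43 for Hoxc13 (adjusted p = 0.0101). In cluster D it was 2.26 ± 0.64 for Hoxd8 (adjusted p = 0.0186), 2.82 ± 0.92 for Hoxd9 (adjusted p = 0.0373) and 2.35 ± 0.49 for Hoxd13 (adjusted p = 0.00288). Most of these calls were lost without 1 library or more. Hoxa10 by day 4 was lost without any 1 of 7 of the 8 libraries compared, TKO day 4 replicate 2 being the exception (adjusted p from 0.104 to 0.137). Hoxc13 and Hoxd11 by day 4 were each lost without any 1 of 5 libraries (adjusted p from 0.06 to 0.118). By day 7 Hoxc4 and Hoxc6 were each lost without any 1 of 6 libraries (0.0512 to 0.256), Hoxa13 and Hoxd9 without any 1 of 5 (0.0592 to 0.149), Hoxd8 without any 1 of 4 (0.0527 to 0.0896), Hoxb9 without any 1 of 2 (0.0642 and 0.078) and Hoxc13 without WT day 7 replicate 2 (0.0921). Hoxa13, Hoxd8, Hoxd9 and Hoxd13 by day 4 and Hoxd13 by day 7 were called without each library in turn. The fitted sizes of Hoxa13 by day 4 and Hoxc6 by day 7 are uncertain, since each rests on a WT group at the floor. Hoxa13 had 1 count over both WT day 4 libraries, and Hoxc6 had 1 over both WT day 7 libraries. By day 4 Hoxa10 was also lost with protein-coding transcripts alone (adjusted p = 0.166), no filter (0.12) and the replicate block (0.0571). The libraries compared alone lost Hoxa10 (0.0899) and Hoxc13 (0.089). By day 7 DESeq2 did not call Hoxc6 (0.112) or Hoxa13 (0.076). Hoxc6 was also lost with protein-coding transcripts alone (0.124) and no filter (0.0527). The effective-length offset lost Hoxa13 (0.188), Hoxd8 (0.0798) and Hoxc4 (0.0543).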

How the results depend on the processing

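Of 181 called pairs of a Hox gene and a comparison, 110 were called under every alternative in which the gene was tested. Those at day 4 between genotypes were Hoxa13, Hoxd1, Hoxd8, Hoxd9 and Hoxd13, and at day 7 Hoxb1, Hoxb3, Hoxb9, Hoxc6, Hoxc13 and Hoxd13. Between genotypes, the 1 call at day 0 became 0 with the effective-length offset, 0 with the replicate block and 0 to 1 with a library left out; the libraries compared alone gave 1, but not Hoxd8. The 4 calls at day 2 became 2 with the offset, 7 with the libraries compared alone and 0 to 5 with a library left out. The 14 at day 4 became 6 with the libraries compared alone and 6 to 18 with a library left out, and the 8 at day 7 became 13 with DESeq2 and 6 to 13 with a library left out. The 23 calls of WT day 4 against day 0 became 15 under the stricter filter. The 7 differences in change by day 4 became 4 to 12 with a library left out; the 8 by day 7 became 5 with the offset, 13 with the libraries compared alone and 1 to 11 with a library left out. Hoxa10 in TKO, day 4 against day 0, ranged from -0.58 to 4.13 over the libraries left out. Epha4 at day 7 read -0.02 with protein-coding transcripts alone. Leaving out TKO day 4 libraries for other comparisons was chosen after seeing the data. The cause of these changes was not tested, apart from fewer genes tested under the stricter filter.

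Replicate numbers did not pair the libraries: over 28 pairs of groups the correlation of their deviations ran from -0.332 to 0.0743. With the replicate block 175 of the 181 calls remained and 6 were lost. Many members have under 10 counts in a library, which limits the precision of their differences, called or not.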
